A study of Mus musculus with 20 samples.

Results

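The 10 genes described here are Spic, Hmox1, Vcam1, Cd163, Cd5l, Marco, Clec4f, Timd4, Csf1r and C1qa. They were listed as genes of macrophages that recycle iron from heme and of macrophages that reside in the liver. Whole liver RNA does not tell which cells gave their counts, and not all 10 are confined to macrophages. The genes were taken as a list of gene symbols. All 10 were found, had counts in each of the 20 livers and passed the filter on low counts. They are 10 of 17573 genes tested and of 26830 genes with a count. The 10 MNR livers came from male fetuses of CD-1 IGS dams under maternal nutrient restriction (MNR), 2 from each of 5 litters. The 10 control livers came from male fetuses of control CD-1 IGS dams, also 2 from each of 5 litters. All fetuses were taken at embryonic day 18.5, and polyadenylated RNA of the right liver lobe was sequenced. The labels give neither the degree nor the timing of the restriction. CD-1 is an outbred strain, so litters also differ genetically, and the labels name no genetic change in either group. Litters are named by group and letter and fetuses by a further 1 or 2, and litters of the 2 groups that share a letter come from different dams.

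Macrophages of the liver and spleen engulf worn or damaged red cells and erythroblast nuclei, break heme down with heme oxygenase and return the iron to the circulation through ferroportin. In mice, heme inside a macrophage releases genes from the repressor BACH1, among them Spic, a transcription factor of the ETS family needed for red pulp and bone marrow iron-recycling macrophages, and Hmox1, the inducible heme oxygenase. The fetal liver is also the main site of red cell formation before birth, and its resident macrophages, the forerunners of Kupffer cells, sit at the centre of erythroblastic islands.

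Promoters were available in the RefSeq table (build GRCm38.p6) for 6 of the 10 genes, namely Spic, Cd163, Cd5l, Marco, Clec4f and Timd4. The 250 bases before the annotated start are printed for 4 of them. Spic is the gene that passed the test, Cd5l and Marco were the member pair with the highest Pearson correlation between fetuses (with control fetus B_1 included), and Clec4f had the widest littermate difference. The Spic window is chr10:88683024-88683273 (minus strand), the Cd5l window chr3:87357631-87357880 (plus strand), the Marco window chr1:120505025-120505274 (minus strand) and the Clec4f window chr6:83656117-83656366 (minus strand). Each is written 5′ to 3′ on the strand of its gene, and capitals mark a match to a searched motif.
Spic: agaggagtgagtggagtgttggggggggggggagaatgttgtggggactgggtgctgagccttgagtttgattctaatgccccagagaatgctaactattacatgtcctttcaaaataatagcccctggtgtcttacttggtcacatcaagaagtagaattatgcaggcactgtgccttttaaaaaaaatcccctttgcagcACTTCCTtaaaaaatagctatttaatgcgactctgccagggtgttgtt
Cd5l: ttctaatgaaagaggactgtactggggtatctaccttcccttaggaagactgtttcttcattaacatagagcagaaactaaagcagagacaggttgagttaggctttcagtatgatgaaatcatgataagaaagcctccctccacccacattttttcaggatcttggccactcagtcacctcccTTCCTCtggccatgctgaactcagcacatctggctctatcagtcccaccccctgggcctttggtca
Marco: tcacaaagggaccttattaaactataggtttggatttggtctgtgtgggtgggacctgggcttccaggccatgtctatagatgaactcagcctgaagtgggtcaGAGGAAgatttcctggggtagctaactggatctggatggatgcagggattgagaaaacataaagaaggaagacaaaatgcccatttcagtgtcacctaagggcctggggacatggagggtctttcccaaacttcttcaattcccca
Clec4f: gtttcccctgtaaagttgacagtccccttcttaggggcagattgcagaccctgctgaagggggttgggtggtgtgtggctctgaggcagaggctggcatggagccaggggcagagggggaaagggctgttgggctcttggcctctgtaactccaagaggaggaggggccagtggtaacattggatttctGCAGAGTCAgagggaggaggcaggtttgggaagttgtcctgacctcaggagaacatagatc
The motifs, searched on both strands, were GAGGAA, the core bound by the macrophage factor PU.1 (gene Spi1); AGGAAGT, a longer ETS core that can overlap the first and was added after the sequences had been seen; TGANTCA, bound by AP-1; and TGACNNNGC, the antioxidant response element used by NRF2 and BACH1 with small MAF proteins, which can overlap the third. Spic held AGGAAGT as its reverse complement, starting 48 bases before the start, a motif found in 7.69% of 32851 promoters of the table. Cd5l held GAGGAA as its reverse complement, 66 bases before the start, and Marco held it as written, 146 bases before the start, against 23.3% of all promoters. Clec4f held TGACNNNGC as its reverse complement, 61 bases before the start, against 10.2% of all promoters. The windows of Cd163 and Timd4 held none of the 4 motifs, and TGANTCA, found in 6.75% of promoters, was in none of the 6 windows. A match describes letters in this window only.

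Library totals were 16703824 to 28016953 counts in MNR livers and 14925778 to 27848100 in control livers. Transcripts of exocrine pancreas, summed over Prss2, Cpa1, Ctrb1, Cela2a and Clps, were above 20 CPM in 3 libraries, below called the livers with pancreatic transcripts. CPM is counts relative to the library total, here unscaled and for all other genes with TMM-scaled totals unless stated. The sum was 127 CPM in MNR fetus B_1, 83.0 CPM in MNR fetus E_1 and 349 CPM in control fetus B_1. It was 18.1 CPM in MNR fetus B_2, 6.87 CPM in control fetus D_1 and at most 2.24 CPM in the other livers. MNR fetus B_2, just below the cutoff, was kept in the fits without the 3 livers. Control fetus B_1 also had the highest Cd5l and Marco of all 20 livers and the highest Hmox1 of the control group. Calls of members that change without the 3 livers with pancreatic transcripts are given with and without them. Markers of the labelled tissue were present, with summed hepatocyte markers of 129678 ± 9885 CPM in MNR litters and 133592 ± 7852 CPM in control litters (SD, n = 5 each) and summed erythroid markers of 26965 ± 3379 CPM in MNR litters and 28938 ± 5653 CPM in control litters.

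Spic rose in MNR livers, and it was the only one of the 10 genes past the threshold of 0.05 on the adjusted p of edgeR's quasi-likelihood test over litters. The other 9 did not pass; among them Hmox1 had the next smallest p. Over all genes tested, 117 passed, 0.666%, with 73 higher in MNR (0.415%) and 44 lower in MNR (0.25%). Of the 10 members, 7 had a log2 fold change above 0 and 3 below 0, with a median of 0.14 against -0.0027 over all genes tested. DESeq2 on the same litters called 2 of the 10, Spic and Hmox1, against 6.62% of all genes. An unadjusted p below 0.05 was reached by 4 of the 10 (Spic, Hmox1, Timd4 and Vcam1), against 19.6% of all genes. The members were chosen with earlier results of these data known, so these shares are given as description.

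**Figure D1:**
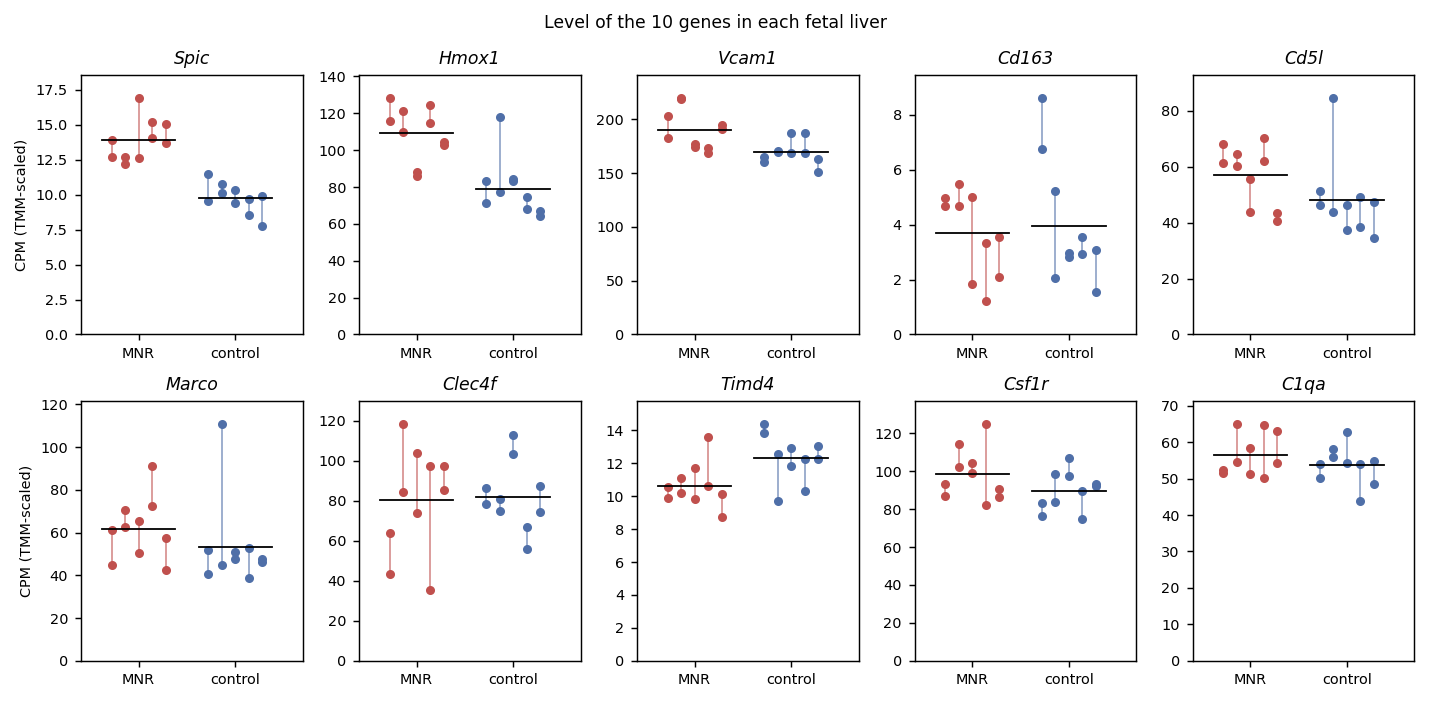
CPM (TMM-scaled) of the 10 genes in each fetal liver, MNR in red at left and control in blue at right. A dot is a fetus, a thin line joins littermates and the black bar is the group mean. All 10 MNR fetuses lie above all 10 control fetuses for Spic, and control fetus B_1 stands at the top of its group for Hmox1, Cd5l and Marco.

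**Figure D2:**
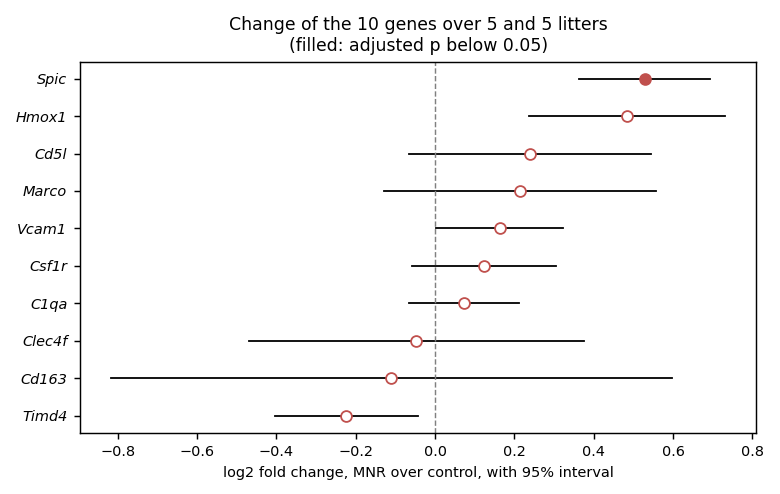
Log2 fold change of MNR over control for the 10 genes with its 95% interval, from edgeR's quasi-likelihood fit over 5 MNR and 5 control litters. The filled point, Spic at 0.53, is past the adjusted threshold of 0.05, and the open points are not.

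The heme-responsive factor Spic (ENSMUSG00000004359, mm9 chr10:88137517-88147760, minus strand, protein coding) had 13.2, 12.4, 15.1, 14.7 and 14.4 CPM in MNR litters A to E, against 10.3, 10.4, 9.88, 9.08 and 8.85 CPM in control litters A to E. Every MNR litter stood above every control litter, which held for 4.5% of all genes in either direction and for 2.28% with MNR higher. Fetuses separated as well, with a lowest, median and highest of 12.2, 13.8 and 16.9 CPM in the MNR group and 7.74, 9.79 and 11.5 CPM in the control group. Groups of fetuses did not overlap for 0.279% of all genes, 0.182% with MNR higher. The litter means were 14.0 ± 1.15 CPM in MNR and 9.70 ± 0.702 CPM in control (SD, n = 5 each). The log2 fold change was 0.53 ± 0.0755 (SE; 95% interval 0.36 to 0.69), a fold of 1.44, with adjusted p 0.0257 in edgeR and rank 7 by p among 17573 genes. In whole liver RNA, a change in the number of cells of a type and a change in RNA per cell cannot be told apart.

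The separation of single fetuses depended on the scaling between libraries. With library totals only, the lowest MNR fetus (B_2) had 11.7 CPM and the highest control fetus (A_1) 12.2 CPM, and 9 of 10 MNR fetuses lay above the highest control fetus. Spic counts were 213 to 433 per MNR fetus and 146 to 250 per control fetus. All 5 annotated Spic transcripts had higher mean TPM (counts per transcript length, scaled to the library) in MNR, with ratios of MNR over control of 1.21 to 1.63. Reads shared by transcripts of a gene had been assigned by the authors' counting, so these ratios are not independent of each other. The adjusted p of Spic was above the threshold when only fetus 1 of each litter was used (log2 fold change 0.53, adjusted p 0.215 in edgeR) and with the mean log2 CPM of pan-macrophage markers as a covariate (0.45, adjusted p 0.292 in edgeR). It was also above the threshold without MNR litter A, B or E or without control litter A, C, D or E, at 0.0509 to 0.0761, with log2 fold changes of 0.50 to 0.57. Under each of these settings few or no genes passed at all: 0 with fetus 1 only, 0 with the covariate and 0 to 2 in the fits without those litters.

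Hmox1 (ENSMUSG00000005413, mm9 chr8:77617490-77624495, plus strand), which opens the heme ring to biliverdin, iron and carbon monoxide, had 122, 115, 87.5, 121 and 104 CPM in MNR litters A to E. In control litters A to E it had 75.7, 95.4, 84.3, 71.1 and 65.8 CPM. Of the MNR litters, 4 stood above every control litter, and MNR litter C lay below control litter B. Litter means were 109.8 ± 14.3 CPM in MNR and 78.5 ± 11.6 CPM in control (SD, n = 5 each), and the log2 fold change was 0.48 ± 0.113 (SE; 95% interval 0.24 to 0.73). The adjusted p of 0.0645 in edgeR missed the threshold. All 10 MNR fetuses were above the control median of 75.9 CPM; the lowest, median and highest were 86.2, 112 and 128 CPM in MNR fetuses and 64.3, 75.9 and 118 CPM in control fetuses. The highest control value was that of fetus B_1, the library with the most pancreatic transcripts, and the next control fetus had 84.6 CPM. Without control fetus B_1 the log2 fold change was 0.55 with adjusted p 0.0240 in edgeR (1.69% of genes passed), and without all 3 livers with pancreatic transcripts it was 0.57 with adjusted p 0.0269 in edgeR (1.22% of genes passed). Without MNR fetus D_1 it was 0.47 with adjusted p 0.0476 in edgeR (3.21% of genes passed). Hmox1 also passed with fetus 2 of each litter only, at 0.57, where 3.08% of genes did, and it did not with fetus 1 only, at 0.37 with adjusted p 0.439 in edgeR. Its 4 transcripts had TPM ratios of MNR over control of 1.32 to 1.41.

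**Figure D3:**
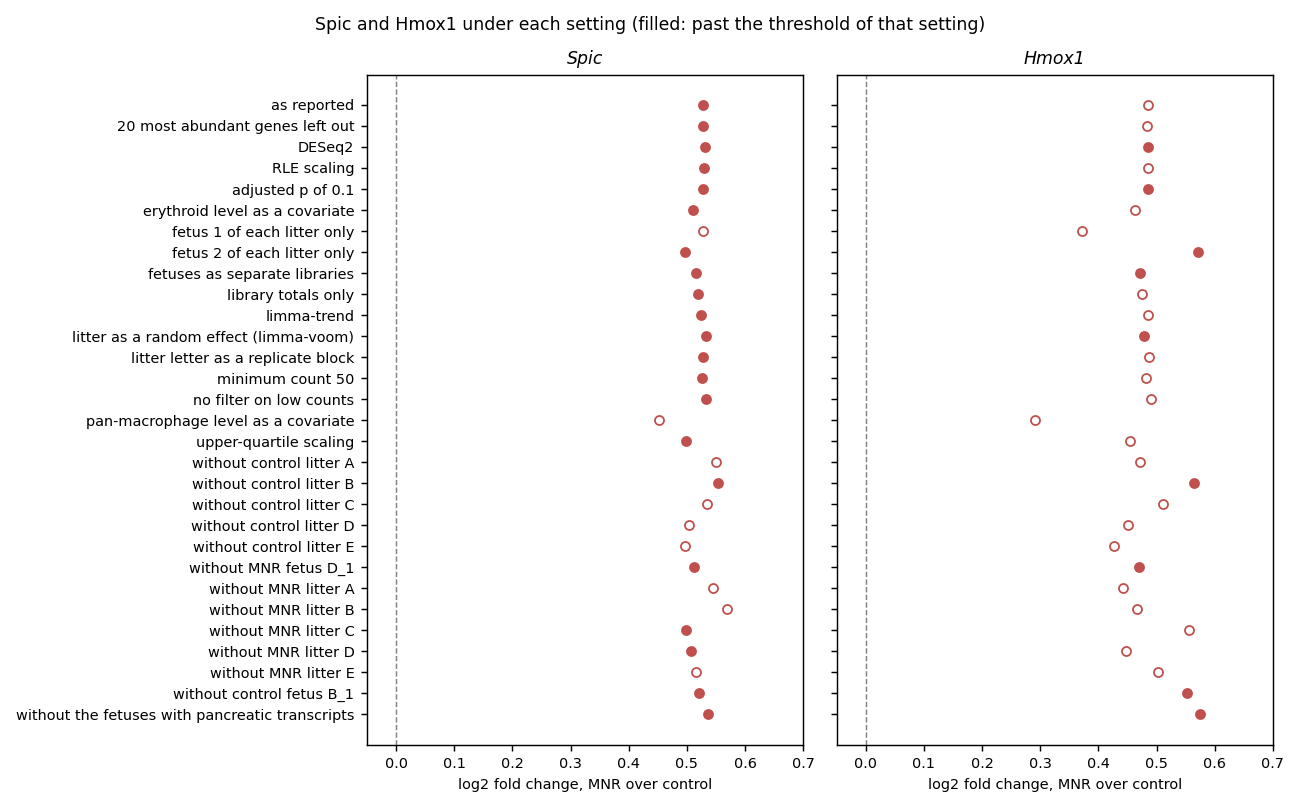
Log2 fold change of MNR over control for Spic at left and Hmox1 at right under each way of processing, one row a setting. Filled points passed the threshold of that setting. Spic ran from 0.45 to 0.57 and Hmox1 from 0.29 to 0.57, all above 0.

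Vcam1 (ENSMUSG00000027962, mm9 chr3:115812938-115832606, minus strand) encodes the adhesion molecule by which island macrophages hold erythroblasts, through the integrin made with Itga4, and it is also made by endothelium. It had 192, 218, 177, 170.0 and 193 CPM in MNR litters A to E and 163, 169, 178, 180.0 and 158 CPM in control litters A to E. Of the MNR litters, 3 lay above every control litter and the groups overlapped. The log2 fold change was 0.16 ± 0.0733 (SE; 95% interval 0.0028 to 0.32) with adjusted p 0.247 in edgeR. It passed only where fetuses were counted as separate libraries (0.17, adjusted p 0.0405 in edgeR), which treats littermates as independent and passed 14.3% of all genes. Vcam1 was the member most alike within litters: litters accounted for 72.1% of its variance between fetuses within a group, and the widest difference between littermates was 1.11-fold.

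Cd163 (ENSMUSG00000008845, mm9 chr6:124254669-124280545, plus strand), the receptor for hemoglobin bound to haptoglobin, was the least abundant member and had 34 to 128 counts per MNR fetus and 29 to 175 per control fetus. Litter values were 4.79, 5.08, 3.64, 1.97 and 2.84 CPM in MNR and 7.44, 3.76, 2.92, 3.30 and 2.32 CPM in control, in the order A to E. The log2 fold change was -0.11 ± 0.324 (SE), with a 95% interval of -0.82 to 0.60 that covers a fold of 0.567 as well as 1.51 (adjusted p 0.883 in edgeR). Its sign turned without MNR fetus D_1 (0.0038), the liver with the lowest Cd163 at 1.22 CPM, without its litter (0.048) and without control litter A (0.25). Cd163 had the largest spread between fetuses of the members, an SD of 0.72 on the log2 CPM scale around the group mean.

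Cd5l (ENSMUSG00000015854, mm9 chr3:87161803-87174996, plus strand), a secreted scavenger-receptor protein of tissue macrophages also called AIM, had 64.3, 62.0, 49.2, 64.8 and 42.1 CPM in MNR litters A to E. Control litters A to E had 48.2, 62.3, 42.7, 45.0 and 41.2 CPM. Of the MNR litters, 2 stood above the highest control litter, which was B. The log2 fold change was 0.24 ± 0.140 (SE; 95% interval -0.065 to 0.54; adjusted p 0.376 in edgeR), and the groups overlapped. It was 0.35 without control litter B or control fetus B_1 and 0.36 without the 3 livers with pancreatic transcripts, and 0.082 with fetus 1 of each litter only and 0.088 with the pan-macrophage covariate. Under none of these did it pass.

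Marco (ENSMUSG00000026390, mm9 chr1:122371115-122401661, minus strand), a scavenger receptor for bacteria and particles, had 52.8, 66.4, 57.3, 79.0 and 49.8 CPM in MNR litters A to E and 44.9, 74.6, 49.7, 47.0 and 47.2 CPM in control litters A to E. Control litter B again stood above the other control litters, through fetus B_1 at 111 CPM against 45.0 CPM in its littermate. The log2 fold change was 0.21 ± 0.157 (SE; 95% interval -0.13 to 0.56; adjusted p 0.489 in edgeR). It was 0.37 without control litter B, 0.39 without control fetus B_1 and 0.38 without the 3 livers with pancreatic transcripts, and -0.11 with fetus 1 of each litter only and -0.056 with the pan-macrophage covariate. It passed in none of these fits.

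Clec4f (ENSMUSG00000014542, mm9 chr6:83594536-83606181, minus strand), a galactose-binding lectin that marks Kupffer cells in mice, had 53.4, 102, 91.2, 57.4 and 91.3 CPM in MNR litters A to E. In control litters A to E it had 81.4, 77.3, 108, 60.7 and 81.2 CPM. On counts summed over littermates, MNR litters A and D lay below the lowest control litter (60.7 CPM), and B, C and E within the control range. Summed counts give the deeper library more weight. In MNR litter D the low fetus, D_1, had a total of 28016953 counts, against 16703824 in D_2. Litter means were 79.1 ± 22.1 CPM in MNR and 81.7 ± 17.0 CPM in control (SD, n = 5 each). The log2 fold change was -0.05 ± 0.194 (SE; 95% interval -0.47 to 0.38; adjusted p 0.918 in edgeR), and its sign turned without MNR fetus D_1 (0.091), without MNR litter A (0.063) or D (0.049), without control litter C (0.074) and with fetus 2 of each litter only (0.14). Littermates of MNR litter D differed 2.76-fold, the widest pair of any member, with 35.2 CPM in D_1 and 97.3 CPM in D_2.

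Timd4 (ENSMUSG00000055546, mm9 chr11:46624302-46657834, plus strand), the phosphatidylserine receptor TIM-4 that marks macrophages of embryonic origin and takes up dying cells, had 10.2, 10.6, 10.9, 11.7 and 9.44 CPM in MNR litters A to E. Control litters A to E had 14.2, 10.96, 12.4, 11.5 and 12.7 CPM. All 5 MNR litters were below the control median of 12.4 CPM and 4 were below the lowest control litter. Of the 10 MNR fetuses, 1 was above the control median of 12.4 CPM. The log2 fold change was -0.22 ± 0.0824 (SE; 95% interval -0.40 to -0.044), with an unadjusted p of 0.0188 and adjusted p 0.165 in edgeR. It kept its sign under all 29 alternatives, from -0.26 to -0.17, and passed under none.

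Csf1r (ENSMUSG00000024621, mm9 chr18:61265226-61291803, plus strand) encodes the receptor for CSF1 and IL-34 on which macrophage survival depends. It had 89.6, 108, 103, 97.1 and 88.7 CPM in MNR litters A to E and 78.8, 91.4, 102, 81.2 and 93.1 CPM in control litters A to E. The groups overlapped, and the log2 fold change was 0.12 ± 0.0833 (SE; 95% interval -0.059 to 0.30; adjusted p 0.450 in edgeR). It was 0.20 without MNR fetus D_1, and 0.00021 with the pan-macrophage covariate. Most markers of that covariate also had a log2 fold change above 0, so this value cannot part Csf1r from them. Its exons overlap those of Hmgxb3 on the other strand, which had 9468 counts over the 20 livers, and the labels do not say whether counting used strand.

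C1qa (ENSMUSG00000036887, mm9 chr4:136451832-136454718, minus strand), the A chain of the complement recognition protein C1q, had 51.7, 59.8, 55.7, 55.2 and 58.7 CPM in MNR litters A to E, against 51.7, 56.7, 58.4, 48.4 and 51.9 CPM in control litters A to E. The groups overlapped, and the log2 fold change was 0.07 ± 0.0636, the smallest SE of the members (95% interval -0.065 to 0.21; adjusted p 0.560 in edgeR). It was 0.12 without MNR fetus D_1, and -0.072 with the pan-macrophage covariate. The B and C chains, C1qb and C1qc, had log2 fold changes of 0.11 and 0.14.

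With TPM summed over the annotated transcripts of each gene, Hmox1 was the most abundant member, with a mean of 129 TPM over the 20 livers. It was followed by Vcam1 at 83.6, C1qa at 79.5, Clec4f at 71.3, Marco at 43.3, Csf1r at 41.4, Cd5l at 38.7, Spic at 12.6, Timd4 at 7.93 and Cd163 at 1.30 TPM. Short transcripts add to these sums, so the order depends on the annotation. The 1606-base Hmox1 transcript alone had 77.89 TPM in MNR and 56.25 TPM in control. The only C1qa transcript had 81.35 TPM in MNR and 77.68 TPM in control. A 606-base noncoding transcript gave Clec4f 29 TPM in MNR and 29.48 TPM in control. Ranges of neighbours in this order did not overlap between Cd5l and Spic or between Timd4 and Cd163, and they overlapped for the other pairs. Vcam1 exceeded C1qa in 11 of 20 livers, Marco exceeded Csf1r in 10 and Csf1r exceeded Cd5l in 12, so these neighbours do not differ beyond their spread. Spic averaged 14.8 ± 1.65 TPM in MNR fetuses and 10.4 ± 1.14 TPM in control fetuses (SD, n = 10 each).

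Littermates resembled each other to different degrees. After Vcam1, litters accounted for 53.9% of the variance of Hmox1, 33.7% of Cd163, 29.0% of Cd5l, 24.2% of Clec4f, 19.5% of Timd4, 13.1% of Csf1r and 7.71% of Marco. The estimates for Spic and C1qa were at or below 0, meaning that littermates were no more alike than fetuses of different litters. Spic had an SD of 0.15 on the log2 CPM scale between fetuses around their group mean, against 0.72 for Cd163 and 0.45 for Clec4f.

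Some members varied together between fetuses after each group was centred on its mean. These are correlations of log2 CPM over 20 fetuses, which share litters and library scaling, and they are given as description. Clec4f, C1qa and Csf1r correlated with each other (Pearson r 0.76 for Clec4f with C1qa, 0.71 for Csf1r with C1qa and 0.68 for Clec4f with Csf1r). Cd5l correlated with Marco (r 0.77) and with Hmox1 (r 0.72), and Hmox1 with Marco (r 0.62). Without control fetus B_1 these last 3 values were 0.57, 0.52 and 0.31, below the 0.77 of Clec4f with C1qa. Spic followed none of the other members closely: r was 0.10 with Hmox1, and its largest positive value was 0.31, with C1qa.

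Among 12277 genes with a mean of at least 1 CPM, those most like C1qa were C1qb (r 0.92), C1qc (0.90) and Sdc3 (0.89). Those most like Clec4f were Oas1a, Ifi204 and Oas2, all at r 0.89 and all known as interferon-induced genes. Oas2 ranged from 0.932 to 9.37 CPM in MNR fetuses and from 1.03 to 6.85 CPM in control fetuses. MNR fetus D_1 was low for Clec4f and for Oas2; without the 2 fetuses farthest from the median of Clec4f, MNR D_1 and A_1, the 3 correlations were 0.83, 0.83 and 0.77. Csf1r was most like Tlr4 (0.76), Ifi27l1 (0.75) and Trpm2 (0.74). Spic was most like Usp42 (0.80), Rbak (0.77) and Slc30a1 (0.75), at 0.67, 0.63 and 0.60 without the 2 fetuses farthest from its median. Hmox1 was like Mcm3ap (0.83) and Pgpep1 (0.82), at 0.77 and 0.76 without control fetus B_1. Marco was most like the ribosomal protein pseudogene Rpl36-ps2 (0.85), and Cd5l was like the ribosomal protein gene Rpl29 (0.78). Without control fetus B_1 these were 0.67 for Marco and 0.63 for Cd5l. Pseudogenes share reads with their parent genes, so their values are uncertain. The highest values for the rest were 0.82 for Cd163 with Pacs2, 0.75 for Vcam1 with Arf6 and 0.72 for Timd4 with Vangl2.

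**Figure D4:**
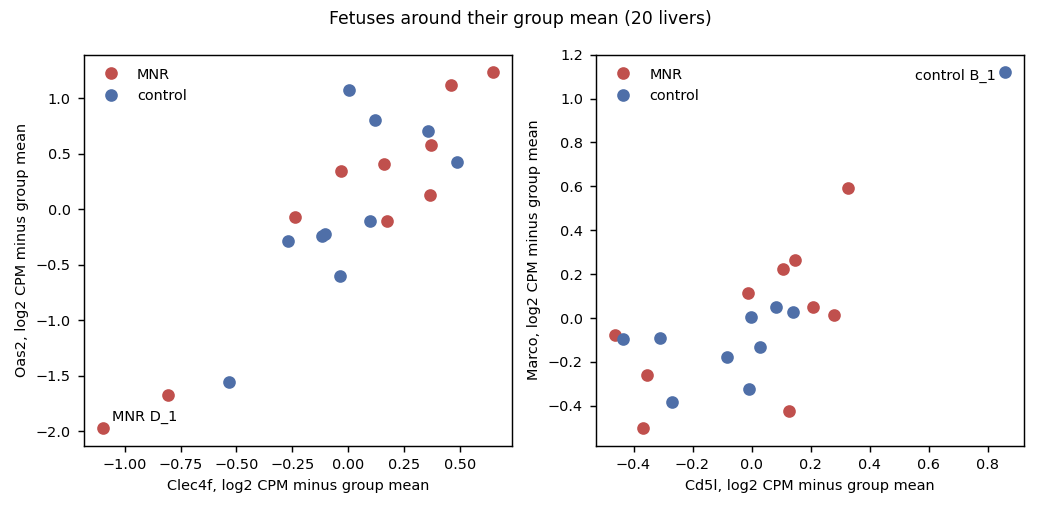
Log2 CPM of single fetuses minus their group mean, MNR in red and control in blue. At left Oas2 is plotted against Clec4f (r 0.89), with MNR fetus D_1 at the low end of both, and at right Marco against Cd5l (r 0.77), with control fetus B_1 at the top of both.

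The summed level of 16 pan-macrophage markers other than the 10 genes was 588 ± 19.5 CPM in MNR litters and 528 ± 47.2 CPM in control litters (SD, n = 5 each). The ranges were 576 to 623 CPM in MNR and 478 to 585 CPM in control and overlapped. Of the 16, 15 had a log2 fold change above 0, with a median of 0.17, and in the edgeR fit 0 rose and 0 fell, with 6 at an unadjusted p below 0.05 and 0 called by DESeq2. The 4 of smallest p were Tyrobp, an adaptor of activating receptors (0.27), Cd68, a lysosomal protein (0.31), Mrc1, the mannose receptor (0.21), and Mpeg1, a pore-forming protein (0.24), with adjusted p values in edgeR from 0.117 to 0.149. Adgre1, which encodes F4/80, was at 33.8 ± 2.78 CPM in MNR and 32.6 ± 4.10 CPM in control, a log2 fold change of 0.05. With the mean log2 CPM of these markers as a covariate the log2 fold change was 0.45 for Spic and 0.29 for Hmox1, and neither passed, as 0 of all genes did in that fit. Since 15 of the 16 markers were themselves above 0, the covariate carries part of the group difference. That fit therefore cannot part a change of any of the 10 genes from a change of the markers.

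Per 1000 CPM of these pan-macrophage markers, a ratio chosen after seeing the data and given without a test, Spic was at 22.9, 19.8, 26.1, 25.3 and 25.00 in MNR litters A to E. In control litters A to E it was at 19.5, 17.8, 17.5, 19.0 and 18.3. The groups did not overlap on this ratio, as was the case for 5.9% of all genes. Hmox1 ranged from 151 to 210.0 in MNR litters and from 136 to 163 in control litters, and Timd4 from 16.4 to 20.01 in MNR litters and from 18.7 to 26.8 in control litters, both with overlap.

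Other Kupffer cell markers were split. Of 10 genes, 6 had a log2 fold change above 0 and 4 below 0, with a median of 0.05; 0 rose and 0 fell in the edgeR fit, 1 had an unadjusted p below 0.05 and DESeq2 called 0. That gene was Clec1b, encoding the podoplanin receptor CLEC-2, at 9.47 ± 1.33 CPM in MNR and 7.66 ± 0.879 CPM in control (0.31; adjusted p 0.152 in edgeR), and it is also a platelet and megakaryocyte gene. Id3, a regulator of Kupffer cell identity, had a log2 fold change of -0.34 (adjusted p 0.267 in edgeR), Folr2 -0.27, Nr1h3, which encodes the oxysterol receptor LXRα, -0.12, and Vsig4, a complement receptor, 0.21. With library totals only or upper-quartile scaling, 5 of the 10 were above 0.

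Around the CSF1 receptor, 6 of 8 genes had a log2 fold change above 0 with a median of 0.13. In the edgeR fit 0 rose and 0 fell, with 2 at an unadjusted p below 0.05, and DESeq2 called 1, Maf. Maf, a macrophage transcription factor, was at 69.9 ± 3.74 CPM in MNR and 58.8 ± 6.52 CPM in control (0.25; adjusted p 0.111 in edgeR). Spi1, which encodes PU.1, had a log2 fold change of 0.14. The ligand genes had opposite signs, -0.27 for Csf1 (adjusted p 0.297 in edgeR) and 0.53 for Il34 (adjusted p 0.386 in edgeR); Il34 was at 0.557 CPM in MNR and 0.391 CPM in control.

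Among 18 other genes of heme uptake, heme breakdown and iron handling, 8 had a log2 fold change above 0 and 10 below 0, with a median of -0.02. This split depended on single livers and on the method: it was 10 and 8 (median 0.041) without control fetus B_1, 11 and 7 (0.039) without MNR fetus D_1, 10 and 8 (0.033) without the 3 livers with pancreatic transcripts, and 9 and 9 (0.0084) with limma-trend. In the edgeR fit 0 rose and 0 fell, with 4 at an unadjusted p below 0.05, and DESeq2 called 2, Bach1 and Ncoa4. Bach1, the heme-sensing repressor of Hmox1 and Spic, was at 78.1 ± 9.04 CPM in MNR and 59.0 ± 6.32 CPM in control, a log2 fold change of 0.41 ± 0.0909 (SE; adjusted p 0.0587 in edgeR). It passed without control fetus B_1 (0.42, adjusted p 0.0370 in edgeR), without MNR fetus D_1 (0.43, adjusted p 0.0317 in edgeR) and without the 3 livers with pancreatic transcripts (0.41, adjusted p 0.0374 in edgeR). Ncoa4, the receptor that delivers ferritin to autophagy, had 0.31 (adjusted p 0.116 in edgeR).

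The transporter DMT1, encoded by Slc11a2, and the endosomal ferrireductase Steap3 had -0.22 and -0.29, with adjusted p values in edgeR of 0.158 and 0.171. The exporter ferroportin, encoded by Slc40a1, was at 272 ± 12.4 CPM in MNR and 268 ± 15.5 CPM in control, a log2 fold change of 0.02 with a 95% interval of -0.11 to 0.15. The phagosomal transporter Slc11a1 was at 12.0 ± 1.600 CPM in MNR and 12.1 ± 1.81 CPM in control (-0.0077). The constitutive heme oxygenase Hmox2 had a log2 fold change of 0.23 (adjusted p 0.376 in edgeR), and the biliverdin reductases Blvra and Blvrb had -0.05 and -0.11. Among the erythroblastic island partners the integrin gene Itga4 had 0.09, and of the 10 genes of that list 6 were above 0, 0 rose and 0 fell in the edgeR fit, 1 (Dnase2a, 0.36) had an unadjusted p below 0.05 and DESeq2 called 0.

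Targets of NRF2, a factor that activates Hmox1 through the elements that BACH1 occupies, mostly had log2 fold changes below 0, and any link to Hmox1 was not tested. Of 8, 7 had a log2 fold change below 0, with a median of -0.21; in the edgeR fit 0 rose and 0 fell, 4 had an unadjusted p below 0.05, and DESeq2 called 2, Gclm and Mafg. Gclm, a subunit of the enzyme that starts glutathione synthesis, was at 193 ± 14.8 CPM in MNR and 222 ± 8.39 CPM in control (-0.20; adjusted p 0.118 in edgeR), and Mafg, a small MAF partner, at 93.2 ± 8.29 CPM in MNR and 109 ± 5.58 CPM in control (-0.22; adjusted p 0.115 in edgeR). The 8 summed to 459 to 508 CPM in MNR litters and 519 to 570.4 CPM in control litters. NRF2 itself (Nfe2l2) had a log2 fold change of 0.05. These genes are expressed by hepatocytes too, so their levels in whole liver are not those of macrophages alone.

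Other scavenger and dead cell receptors summed to 728 ± 32.5 CPM in MNR litters and 663 ± 25.5 CPM in control litters, with ranges of 699 to 773 CPM in MNR and 625 to 694 CPM in control. Of 12 genes, 9 had a log2 fold change above 0 with a median of 0.12; 0 rose and 0 fell in the edgeR fit, 0 had an unadjusted p below 0.05 and DESeq2 called 0. Scarb1, the receptor for high-density lipoprotein, made up 30.9% of that sum and had 0.29 (adjusted p 0.259 in edgeR), and Stab2, a hyaluronan receptor of the sinusoids, had 0.11.

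The LXR list held the single gene past the threshold among the 164 other list genes tested, where 0.666% of all genes passed. LXR is encoded by Nr1h3 and Nr1h2, and Nr1h2 was in this list beside targets of LXR. Srebf1, the master factor of fatty acid synthesis and a hepatocyte gene, fell to 109 ± 23.7 CPM in MNR litters, against 178 ± 19.7 CPM in control litters (log2 fold change -0.71 ± 0.134 SE; adjusted p 0.0436 in edgeR). The other 6 genes of the list did not pass. With fetus 1 of each litter only or with the pan-macrophage covariate Srebf1 did not pass, as 0 of all genes did. Srebf1 was also not called with the erythroid covariate, where 110 of all genes passed. The list median was -0.02, the value of Nr1h2 itself (0.0017 without the 3 livers with pancreatic transcripts). Over all 17 other lists, 26 of the 164 genes had an unadjusted p below 0.05 with MNR higher and 19 with MNR lower. That is 27.4% of them, against 19.6% of all genes. The lists were chosen with earlier results of these data known, and genes within a list are not independent. The contrast is therefore a description and not a test.

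Marker lists of other blood and liver cells also had medians away from 0, and apart from the erythroid level their part in the member results was not tested. With the mean log2 CPM of erythroid markers as a covariate Spic had a log2 fold change of 0.51 (adjusted p 0.0312 in edgeR) and Hmox1 0.46 (adjusted p 0.0821 in edgeR). In the edgeR fit 0 rose and 0 fell in each of these lists. All 10 neutrophil genes had a log2 fold change above 0 (median 0.26, 5 at an unadjusted p below 0.05), with Mpo (0.30) of smallest p, as did all 7 megakaryocyte genes (median 0.25, 6 at an unadjusted p below 0.05), with Gp9 (0.29) of smallest p. All 7 B cell precursor genes were below 0 (median -0.38), as were all 9 hepatic stellate genes (median -0.26) and 12 of 13 erythroid genes (median -0.10). An unadjusted p below 0.05 in edgeR was reached by 3 of these B cell precursor genes, 4 of the stellate genes and 0 of the erythroid genes. Without control fetus B_1, 7 of the 9 stellate genes were below 0 (median -0.14), and 8 were without MNR fetus D_1 or without the 3 livers with pancreatic transcripts. DESeq2 called Mpo and Gp9 higher in MNR, and the stellate genes Pdgfrb and Ngfr, the monocyte gene Cx3cr1 and the hepatocyte gene Ttr lower in MNR. Over all 17 other lists DESeq2 called 5 of 164 genes higher and 7 lower in MNR, and it called 6.62% of all genes. These calls are therefore near the share over all genes. Of 8 monocyte genes 4 were above 0; Cx3cr1, a fractalkine receptor of monocytes and early macrophages, was at 11.2 ± 2.29 CPM in MNR and 16.2 ± 2.76 CPM in control (-0.53; adjusted p 0.0864 in edgeR and 0.0140 in DESeq2). Sinusoidal endothelium and hepatocyte markers had medians of -0.04 and 0.08.

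**Figure D5:**
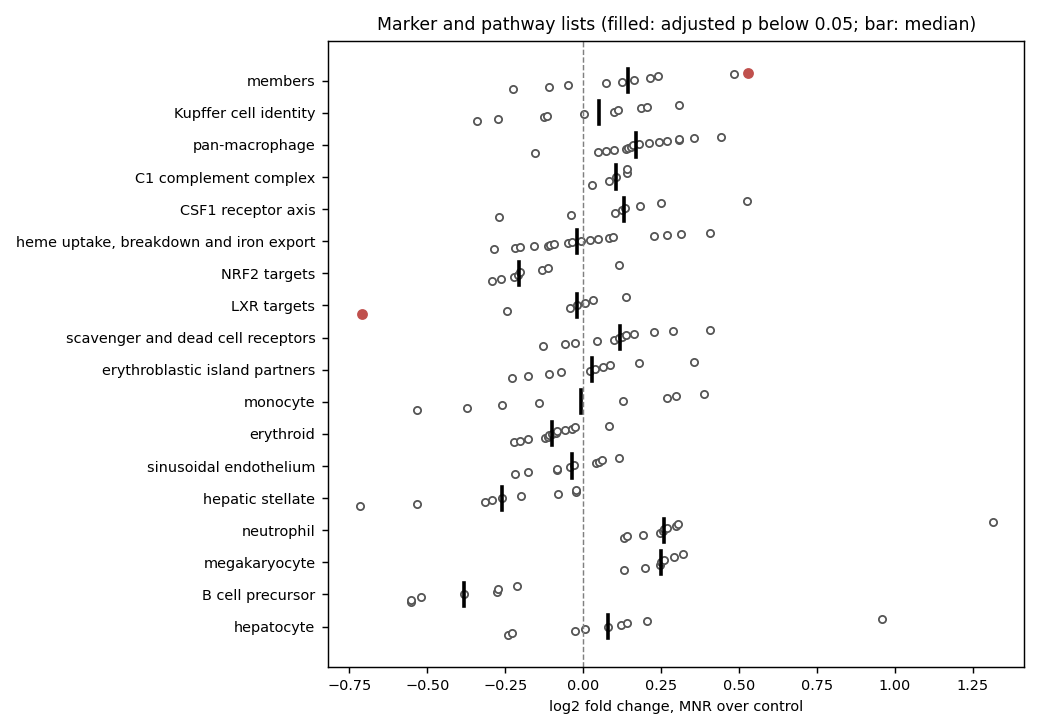
Log2 fold change of MNR over control for the 10 genes (top row) and for 17 lists of markers and pathway genes, a dot per gene and a black bar at the list median. The filled dots are Spic at 0.53 and Srebf1 at -0.71, the only ones past the adjusted threshold of 0.05 in the edgeR fit over litters.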

How the data were processed

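Per the labels' protocols, RNA of ground, frozen right liver lobes was isolated by TRIzol and columns, treated with DNase and made into directional libraries. The deposited values are whole-number counts per transcript, not normalized, for each fetus. The submitters' processing notes name build mm9 with FastQC, Bowtie2, edgeR and DESeq2; counting tool, strand use and treatment of reads matching several places: not given in the sources used here. A gene table of the series, with 20 sample columns, was not used, because most of its values differ from the summed counts.

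Transcript counts were summed to genes with the GENCODE M1 annotation of the same build; 0.0788% to 0.154% of counts matched no gene and were left out. No 2 libraries of a group were identical, and all 90 pairs differed by more than counting noise (chi-square per degree of freedom 9.78 to 79.1). The diet is given to the dam, so the counts of the 2 littermates were summed and 5 MNR litters were compared with 5 control litters. Low counts were removed by filterByExpr at a minimum count of 10, libraries were scaled by TMM, and genes were tested with edgeR 4.0.16 (quasi-likelihood, two-sided, R 4.3.3), with Benjamini-Hochberg adjustment over 17573 genes and a threshold of 0.05. SE is the log2 fold change over the root of F. TPM used annotated transcript lengths. Log2 CPM used a prior count of 2. P-values measure the spread between these litters. The procedure was tested on simulated data.

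The 10 members and all lists were chosen with earlier results of these data known. Named from each list are up to 4 genes of smallest p, and C1qb, C1qc, Adgre1, Cd68, Vsig4, Folr2, Id3, Nr1h3, Spi1, Bach1, Nfe2l2, Slc40a1, Slc11a1, Hmox2, Blvra, Blvrb, Csf1, Il34, Itga4 and Stab2 whatever their result; the pancreatic genes were named after their values were seen. For each member the 3 genes of highest correlation were found, passing over predicted names, and some are not reported here. Of 165 other list genes, 3 were found under another symbol and 1 (Ahsp) was not matched.

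Alternatives were DESeq2 1.42.0, limma-trend and limma-voom (limma 3.58.1), other scalings and filters, a threshold of 0.1, separate or single fetuses, litter letter as a block, erythroid and pan-macrophage marker covariates, the 20 most abundant genes left out, and each litter left out. Leaving out control fetus B_1, MNR fetus D_1 or the 3 livers above 20 CPM of pancreatic transcripts was chosen after seeing the data. Promoter sequences and their coordinates are RefSeq's (GRCm38.p6).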

Additional observations from a re-analysis of the deposited data

Results flagged for a closer look

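In 5 cases a value of the 10 genes stood apart within their group, among 40 sets of litter or fetus values examined; chance marks about 1 set in 20. For Hmox1, control fetus B_1 had 118 CPM, and the next control fetus 84.6 CPM. For Cd5l the same fetus had 84.6 CPM, and the next 51.4 CPM. For Marco it had 111 CPM, and the next 52.6 CPM. Its litter, control B, was the highest control litter for Marco at 74.6 CPM, with the next at 49.7 CPM. Control fetus B_1 also held the most pancreatic transcripts, 349 CPM, and their part in these values was not tested. For Cd163, control litter A had 7.44 CPM and the next control litter 3.76 CPM; both of its fetuses were high, at 8.60 and 6.74 CPM.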

How the results depend on the processing

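Spic kept its direction under all 29 alternatives (log2 fold change 0.45 to 0.57) and passed in 20. It did not pass with fetus 1 of each litter only (0.53) or with the pan-macrophage covariate (0.45), and ranged from 0.50 to 0.57 over litters left out. Hmox1 also kept its direction and passed with DESeq2 (0.49), a threshold of 0.1 (0.48), fetus 2 only (0.57), separate fetuses (0.47), litter as a random effect (0.48), without MNR fetus D_1 (0.47), without control fetus B_1 (0.55) and without the livers with pancreatic transcripts (0.57); litters left out gave 0.43 to 0.56, and it passed without control litter B (0.56). Vcam1 passed with separate fetuses (0.17). Signs turned for Cd163 with the erythroid covariate (0.023), without MNR fetus D_1 (0.0038) and over litters left out (-0.26 to 0.25); for Marco with fetus 1 only (-0.11) and the pan-macrophage covariate (-0.056); for Clec4f with fetus 2 only (0.14), without MNR fetus D_1 (0.091) and over litters left out (-0.16 to 0.074); and for C1qa with the pan-macrophage covariate (-0.072). The cause was not tested. Members past the threshold numbered 2 with DESeq2, a threshold of 0.1, fetus 2 only, litter as a random effect, without MNR fetus D_1, without control fetus B_1 and without the livers with pancreatic transcripts, 3 with separate fetuses, 0 with fetus 1 only and with the pan-macrophage covariate, and 0 to 2 over litters left out. Genes past the threshold, 117 in all, numbered 1163 with DESeq2, 875 at 0.1, 0 with fetus 1 only, 499 with fetus 2 only, 2301 with separate fetuses, 1088 with litter as a random effect, 232 with the litter letter as a replicate block, 0 with the pan-macrophage covariate, 178 with upper-quartile scaling, 562 without MNR fetus D_1, 296 without control fetus B_1, 215 without the livers with pancreatic transcripts and 0 to 843 over litters left out. Of the calls, 38.2% were higher in MNR with upper-quartile scaling, against 62.4% with TMM. Letters were not taken to pair litters, since same-letter litters are from different dams. Same-letter litters correlated at -0.0093 to 0.18 around their group means, over 0.1 for letters B, C and D. Whether they share anything else was not tested. The replicate block changed no member's call, and of the list genes it added the stellate gene Lrat (-0.53, adjusted p 0.0319 in edgeR). Cd163 had the fewest counts, as few as 29 in a liver.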
